A study of Mus musculus with 6 samples.

Results

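The cadherins and protocadherins of developing retina were examined in ipsilateral retinal ganglion cells (RGCs), the neurons that send their axons to targets on the side of their own eye, and in contralateral RGCs, which send theirs across the optic chiasm. The family was taken as every gene that has a probe set of its own, a group of array probes summarized as 1 value, and a symbol that starts with Pcdh, or with Cdh followed by a digit. Of 18193 genes with a probe set of their own, 56 met this rule: 21 Cdh genes, 12 non-clustered protocadherins, 22 protocadherins of the beta cluster and the gamma cluster gene Pcdhgc4. The rule used names only. In all, 101 probe sets stood for these genes, and where a gene had several (27 genes), the one with the highest mean over all arrays was used.

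Both groups came from C57BL/6J mouse embryos labeled as embryonic day 16 (E16.5 in the protocols). In each of 3 rounds, a rhodamine dextran was placed on the cut optic tract for 2 h, retinas of 2 litters were pooled by side, and live rhodamine-positive cells were sorted, so that a round gave 1 ipsilateral and 1 contralateral sample. Amplified cDNA was hybridized to 6 Affymetrix arrays. According to the methods the rounds were selected for a high ratio of the ipsilateral gene Zic2 by qPCR, and each sample is a pool of embryos.

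Cadherins are calcium-dependent adhesion proteins that span the cell membrane. Classical cadherins of type I and type II bind like cadherins on a neighboring cell and are tied to actin inside the cell through catenins. Protocadherins lack the catenin binding site. The delta protocadherins are encoded by genes scattered over the genome and take part in axon growth and sorting, and the clustered alpha, beta and gamma genes give each neuron its own mix of surface proteins. In the retina, cadherins hold progenitors together, sort neurons into layers and take part in the growth and targeting of RGC axons.

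None of these genes passed the test for a difference between ipsilateral and contralateral RGCs. Values are log2 intensities, and each difference is ipsilateral minus contralateral on that scale, so that 1 is a 2-fold difference and a negative value means a lower level in ipsilateral RGCs. Of the 56 genes, 46 had a mean at or above the filter level of 4.74, the 20th percentile of all probe sets, and were tested with 15346 genes in all. By limma, where a call took a difference of 2-fold or more and an adjusted p (Benjamini–Hochberg, over 36029 probe sets) under 0.05, 0 of the 46 were called higher, beside 0.358% of all genes tested, and 0 were called lower, beside 0% of all genes. At an unadjusted p under 0.05 there was 1 family member, Pcdh7, beside 466 of the 15346 genes. With the samples of a round paired, called the replicate block, 6 members had an unadjusted p under 0.05, as did 2232 of the 15346 genes, 0 were called, and the lowest adjusted p of a member was 0.111.

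Mean differences lay below 0 more often than above 0 in the beta cluster and the non-clustered protocadherins, but not in the Cdh genes. The mean difference was below 0 for 31 members and above 0 for 15, beside 8059 and 7287 of all genes tested. Its median over the 46 was −0.13, against −0.01 over all genes tested. Of the 15 Cdh genes tested, 9 were above 0 and 6 below, with a median of 0.05. The beta cluster, whose values are not independent of each other, held 16 of the 31 members below 0, with a median of −0.21. Of the 11 non-clustered protocadherins tested, 8 were below 0 and 3 above, with a median of −0.18. RGC markers, given further on, were lower on the same side, with a median of −0.42. By round, the median of the members was −0.10, −0.14 and −0.15. The difference was above 0 in all 3 rounds for 3 members (6.52%, beside 17.6% of all genes tested) and below 0 in all 3 rounds for 11 members (23.9%, beside 20.2% of all genes), so that the share below 0 in every round lay near that of all genes. The 3 ipsilateral values lay wholly above the contralateral values for 0 members, beside 3.84% of all genes, and wholly below them for 0 members, beside 1.98%.

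The precision of these differences was set by the spread between rounds. The median standard error (SE) of a member's difference was 0.48, and with the replicate block 0.18. Without the block, the 95% interval of the difference lay within a 2-fold change in both directions for 3 of the 46 members (6.52%), against 21.5% of all genes tested. With the block it did so for 33 members (71.7%), against 85.0% of all genes. For most members, then, a 2-fold difference lay outside the paired interval in both directions and inside the unpaired one in at least 1. With 3 arrays against 3, the smallest two-sided p that an exact permutation test can give is 0.10.

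**Figure D1:**
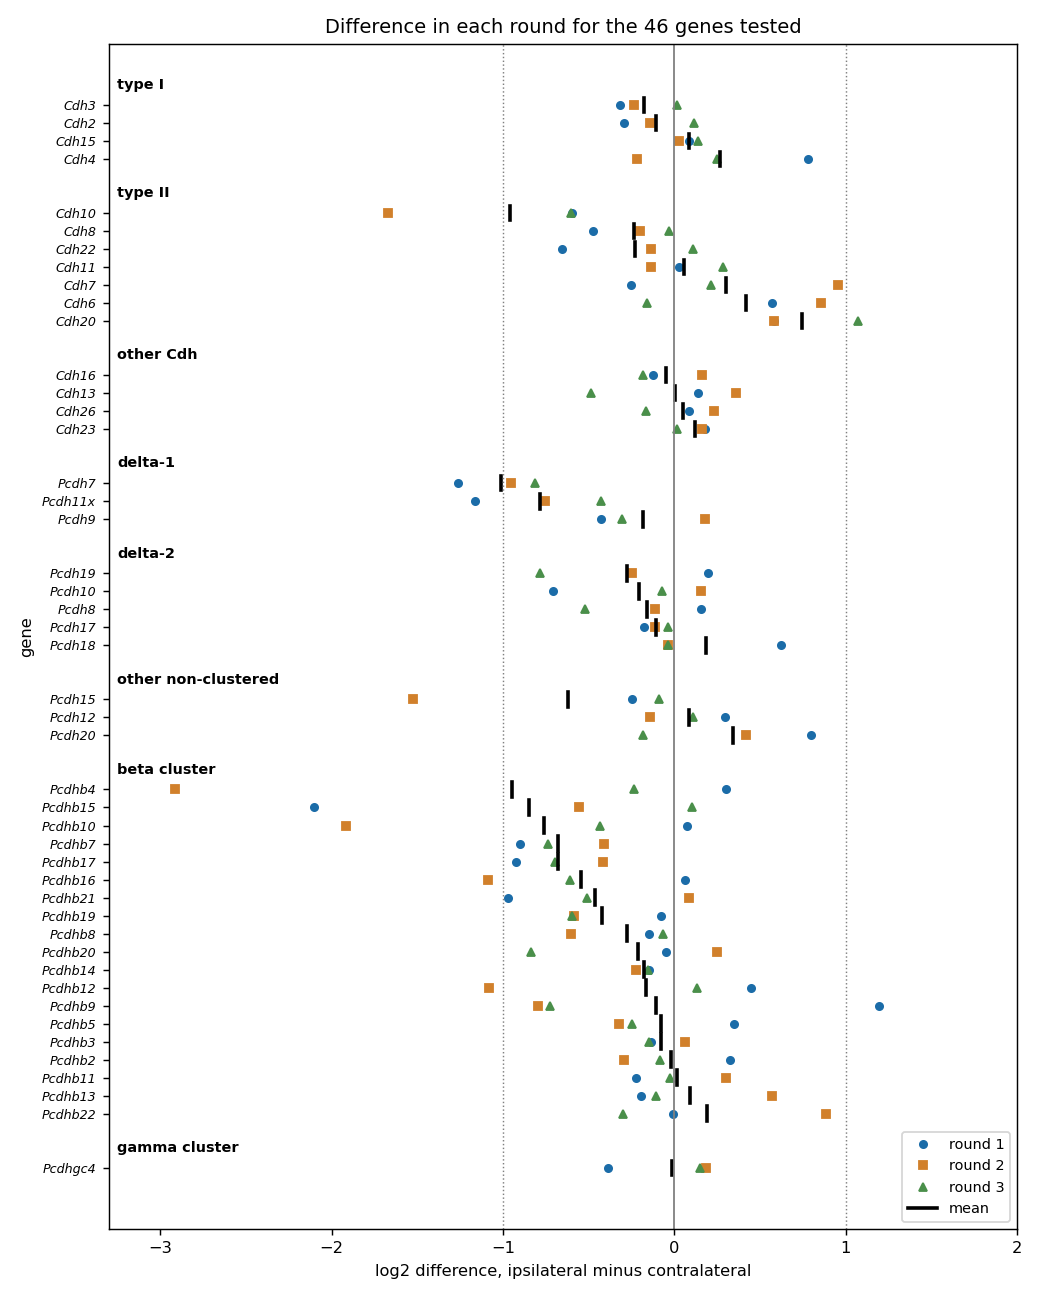
Log2 difference, ipsilateral minus contralateral, in each of the 3 rounds (colored symbols) and as their mean (black bar) for the 46 genes tested, grouped by class; dotted lines mark a 2-fold difference. The means run from −1.01 (Pcdh7) to 0.74 (Cdh20), and the single lowest point is round 2 of Pcdhb4 at −2.91.

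Some markers of other cells in the sorted samples differed between the sides. Of 15 microglia markers 10 were called higher in ipsilateral RGCs, with summed linear intensities of 8599 to 13276 in ipsilateral and 400.3 to 1029 in contralateral samples. Of 13 retinal progenitor markers 3 were called higher, with sums of 10149 to 24986 in ipsilateral and 3073 to 3949 in contralateral samples. All 16 RGC markers measured were above the filter level and lower in the ipsilateral sample of every round, with a median difference of −0.42 and sums of 45719.7 to 54549 in ipsilateral and 55749 to 68215 in contralateral samples. Of 10 immediate early genes, which respond to dissociation, 2 were called higher and 9 were above 0 in every round, with a median difference of 1.81. Endothelial, pigment epithelium and lens markers had no call by limma and medians of −0.01, −0.04 and −0.04. In pooled cells such as these, fewer cells of a type and less RNA per cell cannot be told apart, and the part of these markers in the cadherin differences was not tested.

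The delta-1 protocadherins held the family's largest difference. This class, Pcdh1, Pcdh7, Pcdh9 and Pcdh11x, has long extracellular domains of the cadherin repeat and conserved cytoplasmic motifs, and Pcdh7 (NF-protocadherin) is known from Xenopus for RGC axon growth. Pcdh7 had log2 levels of 7.65, 8.84 and 8.98 in ipsilateral RGCs of rounds 1 to 3, against 8.91, 9.79 and 9.79 in contralateral RGCs. Each ipsilateral sample lay below its partner, but the groups overlapped, because the round 1 samples were low on both sides. The means were 8.49 ± 0.73 in ipsilateral and 9.50 ± 0.51 in contralateral RGCs (SD, n = 3 each). The difference of −1.01 ± 0.47 (SE) was a 2.01-fold lower level, with a 95% interval from −2.01 to −0.01 and an adjusted p of 1.0 by limma. With the replicate block the interval was −1.41 to −0.61. The 2 dimmer Pcdh7 probe sets gave differences of −0.87 and −0.57, also below 0 in every round. For the RGC markers, which were lower on the same side, the median difference was −0.42.

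Pcdh11x, an X-linked protocadherin of neurons, had the same direction. Its levels were 7.90, 8.98 and 8.46 in ipsilateral RGCs, against 9.06, 9.73 and 8.89 in contralateral RGCs. Ipsilateral RGCs of round 2 were above contralateral RGCs of round 3, so the groups overlapped, while each round on its own had the lower value on the ipsilateral side. Its difference was −0.78 ± 0.43 (SE, limma adjusted p = 1.0), and its second probe set gave −0.57. Pcdh9, another neuronal delta-1 member with high signal, gave 9.79, 10.52 and 10.17 in ipsilateral and 10.22, 10.34 and 10.47 in contralateral RGCs, a difference of −0.18 ± 0.39 (SE) that had the opposite sign in round 2. Of its 2 dimmer probe sets, one, at a mean of −0.28, also had the opposite sign in round 2, and the other, at −0.68, was below 0 in every round. Pcdh1 was below the filter level.

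**Figure D2:**
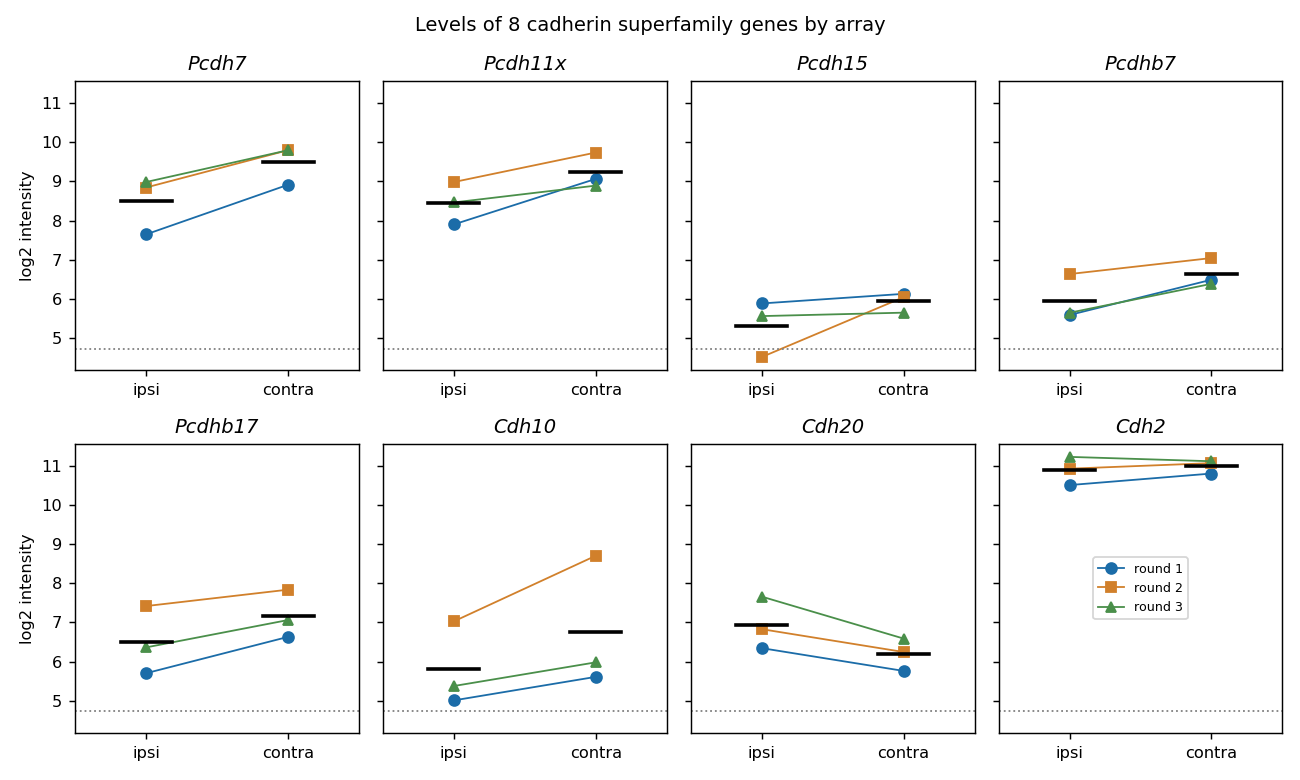
Log2 intensity of 8 genes on each array, ipsilateral at left and contralateral at right in each panel, with the 2 samples of a round joined, the group means as black bars and the filter level (4.74) as a dotted line. The first 7 panels are the genes whose difference was 0.5 or more in size with one sign in every round; Pcdh7 averages 8.49 in ipsilateral and 9.50 in contralateral RGCs, and Cdh2, the last panel, 10.88 and 10.99.

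The delta-2 protocadherins, which regulate actin through the WAVE complex or through internalization of other cadherins, had no difference of 0.5 or more on the brightest probe set. Pcdh19, a partner of N-cadherin whose mutation causes an epilepsy in people, gave 8.38, 8.87 and 8.61 in ipsilateral and 8.19, 9.12 and 9.40 in contralateral RGCs. Its difference was −0.28 ± 0.43 (SE), with a positive sign in round 1, and its other 2 probe sets gave −0.52 and −0.42. Pcdh17, which takes part in the collective growth of axons in the amygdala circuit, gave 7.98, 8.56 and 8.53 in ipsilateral and 8.16, 8.67 and 8.57 in contralateral RGCs. This was lower in every round, but by −0.11 ± 0.40 (SE) only. The second Pcdh17 probe set gave −0.31, also below 0 in every round. Pcdh8, a protocadherin of synapses, was at 9.69 ± 0.56 in ipsilateral and 9.85 ± 0.77 in contralateral RGCs (SD, n = 3 each). Its much dimmer second probe set, with a mean of 5.93, gave −0.45 and was below 0 in every round. Pcdh18, known from zebrafish for roles in cell movement, was near the filter level, at 5.31 ± 0.61 in ipsilateral and 5.12 ± 0.99 in contralateral RGCs (SD, n = 3 each). Pcdh10 (OL-protocadherin), needed for axons to pass through the ventral forebrain, had a difference of −0.21 ± 0.84 (SE), with a spread between rounds that is described further on. With the replicate block, the 95% intervals of all 5 delta-2 genes lay within a 2-fold change.

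Among the remaining non-clustered protocadherins, Pcdh15, which with Cdh23 forms the tip links of hair cells in the inner ear and is also found in photoreceptors, was lower in the ipsilateral sample of each round. It gave 5.89, 4.52 and 5.56 in ipsilateral and 6.13, 6.05 and 5.65 in contralateral RGCs, and its difference was −0.62 ± 0.44 (SE). The difference came mostly from round 2, in which the ipsilateral array was below the filter level: by round it was −0.24, −1.53 and −0.09, and without round 2 it was −0.17. A second Pcdh15 probe set gave −0.47, but by round it was −0.99, −0.23 and −0.20, so that its largest difference was in round 1. Cdh23 itself was at 5.88 ± 0.66 in ipsilateral and 5.76 ± 0.67 in contralateral RGCs (SD, n = 3 each), higher in each ipsilateral sample by 0.02 to 0.18. After subtraction of the array median it was not higher in every round. Photoreceptor precursor markers had a median difference of 1.16, and their part in these values was not tested.

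Type I cadherins were close to even between the sides. Cdh2 (N-cadherin), the main classical cadherin of neural progenitors and of growing RGC axons, had levels of 10.50, 10.92 and 11.22 in ipsilateral RGCs and 10.80, 11.06 and 11.11 in contralateral RGCs. The groups overlapped almost completely, and the difference was −0.11 ± 0.40 (SE), with an interval of −0.50 to 0.28 with the replicate block. Cdh4 (R-cadherin), a retinal cadherin that can act as a substrate for RGC axons, gave 7.75, 8.11 and 7.82 in ipsilateral and 6.97, 8.33 and 7.58 in contralateral RGCs. Its difference of 0.27 ± 0.44 (SE) was led by round 1, where the contralateral sample was low. Its 3 probe sets gave means between 0.10 and 0.27 but did not agree by round. One of similar brightness was at −0.31, −0.19 and 0.98 in rounds 1 to 3. Cdh3 (P-cadherin), known from pigment epithelium, was at 6.85 ± 0.73 in ipsilateral and 7.03 ± 0.65 in contralateral RGCs (SD, n = 3 each), and the pigment epithelium markers had a median difference of −0.04. Cdh15 (M-cadherin of muscle) was higher in each ipsilateral sample, by 0.03 to 0.14, but not in every round after subtraction of the array median. Cdh1 (E-cadherin of epithelia) was below the filter level, at 3.91 ± 0.81 in ipsilateral and 3.86 ± 0.91 in contralateral samples (SD, n = 3 each).

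Type II cadherins held both the highest difference of the family and one of the lowest. Cdh20, a cadherin of the developing nervous system, had levels of 6.35, 6.83 and 7.66 in ipsilateral RGCs, against 5.77, 6.25 and 6.59 in contralateral RGCs. Every ipsilateral sample was above the contralateral sample of its round, and the groups overlapped because the ipsilateral value of round 1 lay below the contralateral value of round 3. Its difference was 0.74 ± 0.45 (SE, limma adjusted p = 1.0), a 1.68-fold higher level, by 0.58, 0.58 and 1.07 in the 3 rounds. It has a single probe set. The retinal progenitor markers, higher on the same side, had a median difference of 2.26.

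Cdh10, expressed by subsets of retinal and other central neurons, ran the other way. It gave 5.01, 7.03 and 5.38 in ipsilateral RGCs, against 5.61, 8.70 and 5.98 in contralateral RGCs. On this probe set both samples of round 2 were high, and the contralateral sample of that round was the highest of all. The difference was −0.96 ± 0.73 (SE, limma adjusted p = 1.0), −1.67 in round 2 and −0.60 in rounds 1 and 3. The 3 dimmer Cdh10 probe sets gave −0.18, −0.28 and −0.39, and the one at −0.28 was above 0 in round 2, by 0.13. Relative to the array median, none of these 3 was highest in round 2. Leaving out round 2 on both sides left −0.60.

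Of the cadherins that mark connections of RGC subsets, Cdh6, known for the targeting of RGCs to non-image-forming nuclei in mouse, gave 6.36, 8.49 and 7.17 in ipsilateral and 5.79, 7.64 and 7.33 in contralateral RGCs. Its difference of 0.42 ± 0.59 (SE) was reversed in round 3, and its second probe set gave −0.20. Cdh8, which with Cdh9 guides bipolar cell axons to their layers, gave 4.94, 5.88 and 7.03 in ipsilateral and 5.42, 6.08 and 7.06 in contralateral RGCs, a difference of −0.24 ± 0.56 (SE). Each round had the lower value on the ipsilateral side, but in round 3 the difference was −0.03. Cdh9 was below the filter level. Cdh11, found in mesenchyme and in neural cells, was at 9.86 ± 0.25 in ipsilateral and 9.80 ± 0.24 in contralateral RGCs (SD, n = 3 each), and both of its probe sets gave a difference of 0.06. Of the pericyte and mesenchyme markers, 8 were above the filter level, 0 were called by limma, and their median difference was 0.13. In every round 4 of them were above 0 and 1 was below, beside 17.6% and 20.2% of all genes tested. The largest differences were those of the collagen genes Col1a2 (2.15), Col3a1 (1.39) and Col1a1 (0.85), the last 2 mainly from round 1. The remaining type II genes Cdh7 and Cdh22 had differences of 0.30 and −0.23, each with both signs among the rounds.

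Cdh5 (VE-cadherin), which defines endothelial cells, was below the filter level in both groups, with 3.79, 4.87 and 5.08 in ipsilateral and 3.88, 4.74 and 5.11 in contralateral samples. Those values nearly coincided in each round. Of 15 endothelial markers measured, Cdh5 left out, Emcn, Robo4, Sox17, Tek and Tie1 were also below the filter level, and the 10 tested had a median difference of −0.01. Cdh13 (T-cadherin), which is anchored to the membrane by a lipid and is found in vessels and neurons, gave 5.45, 7.30 and 7.01 in ipsilateral and 5.32, 6.94 and 7.49 in contralateral RGCs. Its difference was 0.00 ± 0.60 (SE), and its other 2 probe sets above the filter level gave −0.31 and 0.29, so that no direction can be given. Pcdh12, also of vessels, had a difference of 0.09 with both signs among the rounds, as did Cdh16, a kidney cadherin, at −0.05 and Cdh26 at 0.05.

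Promoter sequences are given for the members with the largest differences in either direction and one sign in every round for which one was found, so that the letters can be read beside the values. They are from RefSeq (mouse GRCm38.p6), 250 bases before to 50 after the annotated start, on the plus strand. Capitals mark CACCTG or its reverse complement CAGGTG, the E-box through which Snai1, Snai2 and Zeb2 are known to repress Cdh1. Pcdh7 lies at chr5:57717831-57718130, Cdh10 at chr15:18820079-18820378 and Cdh20 at chr1:104768270-104768569.
Pcdh7: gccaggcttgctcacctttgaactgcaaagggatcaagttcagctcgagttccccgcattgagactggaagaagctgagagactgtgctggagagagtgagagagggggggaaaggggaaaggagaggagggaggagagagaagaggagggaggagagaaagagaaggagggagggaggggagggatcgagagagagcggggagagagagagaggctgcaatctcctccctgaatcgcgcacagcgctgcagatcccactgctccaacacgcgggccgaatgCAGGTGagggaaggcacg
Cdh10: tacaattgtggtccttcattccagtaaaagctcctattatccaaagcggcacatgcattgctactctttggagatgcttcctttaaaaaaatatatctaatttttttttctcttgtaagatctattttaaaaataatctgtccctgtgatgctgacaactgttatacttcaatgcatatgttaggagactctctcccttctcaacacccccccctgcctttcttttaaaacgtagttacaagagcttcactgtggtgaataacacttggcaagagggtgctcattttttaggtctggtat
Cdh20: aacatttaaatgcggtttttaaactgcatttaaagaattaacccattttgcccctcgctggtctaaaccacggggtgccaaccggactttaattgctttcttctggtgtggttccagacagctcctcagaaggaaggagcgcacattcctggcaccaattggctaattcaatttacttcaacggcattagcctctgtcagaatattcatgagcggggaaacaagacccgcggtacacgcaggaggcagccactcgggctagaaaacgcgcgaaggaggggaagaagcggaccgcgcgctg
The window of Pcdh7 held 1 such E-box, and those of Cdh10 and Cdh20 held 0. Pcdh15, with a smaller difference of one sign in every round, also had an entry, not printed here, with 1 E-box and 1 TATAAA. Of the 56 members 20 had a promoter entry, and 3 of these windows (15%) held the E-box, against 20.03% of 27025 windows of the same length. The sequence TATAAA (either strand) was found in 10% of the members' windows and in 14.1% of all windows, and TAATTA, a core of homeodomain sites, in 0 of the 20 and in 5.40% of all. The Pcdh7 window had a G+C content of 59.3% with 11 CpG, that of Cdh20 50.7% with 18 CpG, and that of Cdh10 37.7% with 2 CpG. Over the 20 members the medians were 59.8% and 13 CpG, against 52.7% and 7 CpG for all windows.

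The beta cluster, 22 genes in a row on chromosome 18 that are each a single exon and are switched on in neurons in varying combinations, was the largest class. Of these, 19 were above the filter level, 0 were called, and 16 had a mean difference below 0. The class median was −0.21, and by round −0.08, −0.41 and −0.25. The difference was below 0 in every round for 5 genes (Pcdhb7, Pcdhb8, Pcdhb14, Pcdhb17 and Pcdhb19), beside 20.2% of all genes tested. It was above 0 in every round for 0, beside 17.6% of all genes. Beta genes are similar in sequence, so probes of one may bind transcripts of another, and their values are not independent of each other.

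Pcdhb7 and Pcdhb17 had the largest mean differences of the 5 genes below 0 in every round. Pcdhb7 gave 5.59, 6.64 and 5.65 in ipsilateral RGCs, against 6.49, 7.04 and 6.39 in contralateral RGCs, a difference of −0.68 ± 0.43 (SE, limma adjusted p = 1.0). Pcdhb17 gave 5.71, 7.42 and 6.37 in ipsilateral RGCs, against 6.63, 7.84 and 7.06 in contralateral RGCs, a difference of −0.68 ± 0.50 (SE, limma adjusted p = 1.0). In both genes the ipsilateral value of round 2 exceeded at least 1 contralateral value of another round, so the groups overlapped.

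Other beta differences came largely from 1 round. Pcdhb4 gave 4.71, 4.03 and 4.55 in ipsilateral RGCs, against 4.41, 6.94 and 4.79 in contralateral RGCs, so that 1 contralateral sample stood high and the others lay around the filter level. Its mean difference was −0.95 ± 0.58 (SE), and without round 2 it was 0.03. Pcdhb10 had its highest value on the same array, at 8.31 in contralateral RGCs of round 2 against 6.40 in ipsilateral RGCs of that round, and by round its difference was 0.07, −1.91 and −0.44. Pcdhb12 was at −1.08 in round 2 and above 0 in rounds 1 and 3. Pcdhb16 was spread more evenly, at 0.06, −1.09 and −0.61, and its 2 dimmer probe sets, at −0.34 and −0.67, were below 0 in every round. Pcdhb15 differed most in round 1, at 5.63 in ipsilateral and 7.73 in contralateral RGCs, and its second probe set gave a mean difference of 0.05 where the brighter one gave −0.85. Pcdhb9 ran the other way in round 1, with a difference of 1.20, and was at −0.80 and −0.73 in rounds 2 and 3. Pcdhb8, Pcdhb14 and Pcdhb19, each below 0 in every round, had mean differences of −0.27, −0.18 and −0.42. The other 8 genes of the class above the filter level ranged from −0.46 (Pcdhb21) to 0.19 (Pcdhb22), with both signs among the rounds in each.

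Pcdhgc4, a gamma cluster gene that is needed for neuronal survival in mouse, gave 5.80, 8.15 and 8.27 in ipsilateral and 6.18, 7.96 and 8.12 in contralateral RGCs. The sides differed by −0.02 ± 0.66 (SE), far less than the rounds. A further 6 probe sets matched several alpha cluster genes at once, 14 for 3 of them and 9 for the rest, and belong to no single member. All were above the filter level and 0 were called. The 3 that match 14 genes had differences of −0.80, −0.48 and −0.80, each below 0 in every round, and the 3 that match 9 genes had differences of 0.15, 0.05 and −0.10, with both signs among the rounds.

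Levels varied more between rounds than between sides for many members. After subtraction of the array median, 15 of the 46 members (32.6%) differed by 2-fold or more between the lowest and the highest round, beside 14.9% of all genes tested, and the median level of the members, 6.63, was below that of all genes, 7.17. After a further quantile normalization the shares were 34.8% of members and 13.0% of all genes. Pcdh10 varied most: relative to the array median it stood at 0.05 in round 1, 1.88 in round 2 and −0.83 in round 3, as the mean of both sides. Its 3 other probe sets above the filter level did not peak in round 2. Pcdh20 stood at −1.17, 0.81 and −1.08, whereas its second probe set stood at −2.30, −2.01 and 0.21, so the 2 probe sets disagreed about which round was high. Cdh10 stood at −0.49, 1.19 and −0.61, but its other probe sets above the filter level did not peak in round 2. Pcdhgc4 stood at 0.18, 1.38 and 1.90, and Cdh8 at −0.62, −0.70 and 0.75. In Pcdh10, Pcdhgc4 and Cdh8 the widest difference within a round, before subtraction of the array median, was −0.71, −0.38 and −0.48. Between the lowest and the highest round it was 2.71, 1.71 and 1.45 after subtraction. The steps in which one round differed from another cannot be told apart in this design.

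**Figure D3:**
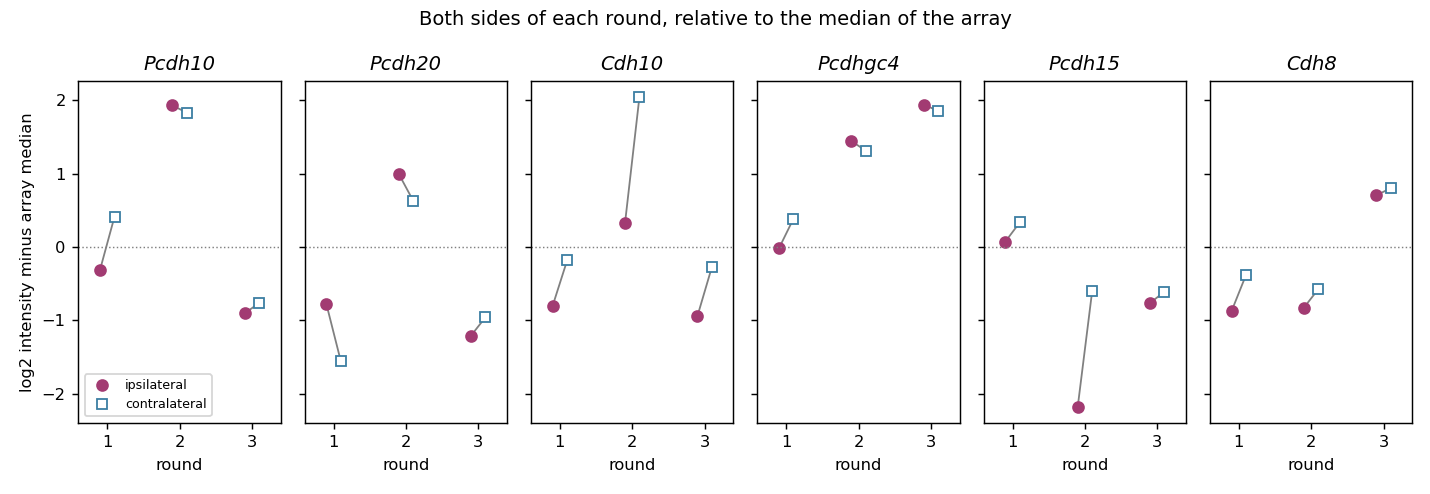
Log2 intensity minus the median of the array in each round for 6 genes, ipsilateral (filled circles) at left and contralateral (open squares) at right, with the samples of a round joined. The rounds lie up to 2.71 apart for Pcdh10, as the mean of both sides. Before subtraction of the median, the sides of a round differ by at most 0.71 in size there, and by −1.67 and −1.53 in round 2 of Cdh10 and Pcdh15.

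Agreement between probe sets of a gene gives a second view of each value. In 21 members, 2 or more probe sets were above the filter level, and all of a gene's probe sets had the same sign of the mean difference in 16 of them. The 5 with both signs were Cdh6, Cdh13, Pcdh10, Pcdh12 and Pcdhb15. The probe sets of Pcdh7, Pcdh11x, Pcdh9 and Pcdh19 were all below 0. These probe sets share their RNA samples and are not replicates.

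**Figure D4:**
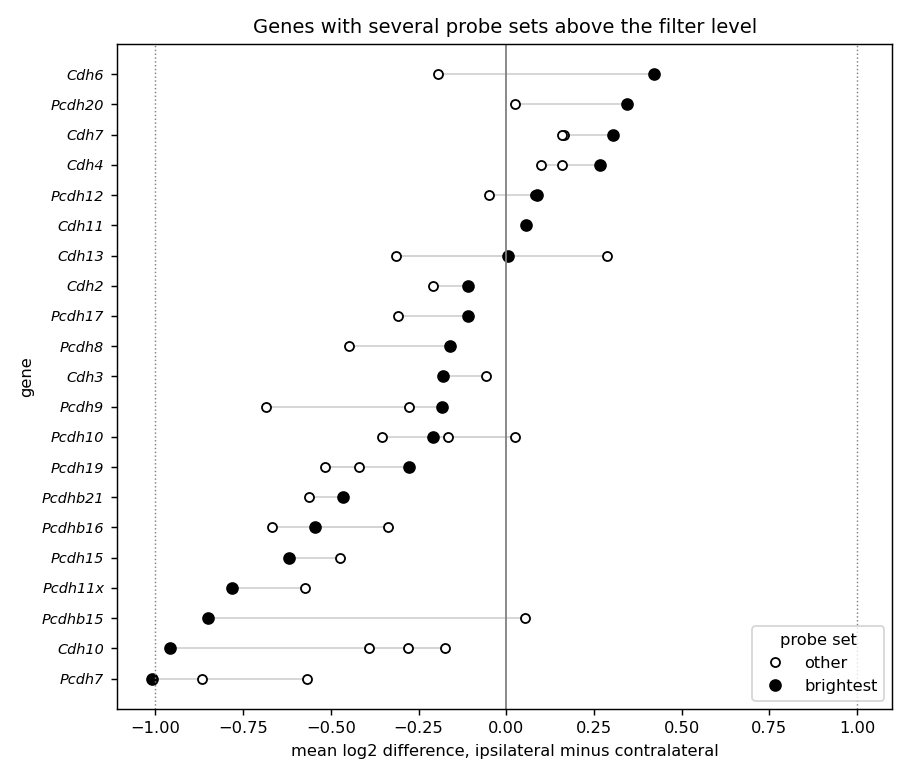
Mean log2 difference, ipsilateral minus contralateral, for each probe set above the filter level in the 21 genes that have several; filled circles are the brightest probe set of a gene, open circles the others, and dotted lines mark a 2-fold difference. The 3 Pcdh7 probe sets lie between −1.01 and −0.57, and the 3 of Cdh13 lie on both sides of 0; for Cdh11 and Pcdh12 points coincide.

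The intracellular partners of these proteins were likewise without a call by limma. Of 16 catenins and related partners measured, 15 were tested, 0 were called, 3 were above 0 in every round and 5 below, and the median difference was −0.09. For this list and those that follow, the shares over all genes tested were 17.6% above 0 and 20.2% below 0 in every round. Catenin beta-1 (Ctnnb1), which binds the tail of classical cadherins, was even, at 12.75 ± 0.08 in ipsilateral and 12.65 ± 0.10 in contralateral RGCs (SD, n = 3 each). The largest differences of the list were those of Ctnna1 (alpha-E-catenin, 0.86) and of Jup (plakoglobin, −0.78). Of 12 partners of protocadherins, among them subunits of the WAVE complex of actin assembly, 0 were called, 5 were above 0 in every round and 7 below, with a median of −0.18. Dab1, an adaptor of reelin signaling, had a difference of 0.86 and Wasf1, a WAVE subunit, one of −0.42. Of the 20 tested genes of the superfamily that the naming rule leaves out, 0 were called, with 6 above and 6 below 0 in every round and a median of 0.01. The atypical cadherin Fat1 had the largest difference there, 1.46 ± 0.45 (SE, limma adjusted p = 0.583), and calsyntenin-2 (Clstn2) the lowest, −0.91 ± 0.40 (SE, limma adjusted p = 1.0). In the authors' own comparison of these arrays in GeneSpring, a probe set each of Dab1 and Fat1 was listed as higher in ipsilateral RGCs.

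The members below the filter level were Cdh1, Cdh5, Cdh9, Cdh17, Cdh18, Cdh19, Pcdh1, Pcdhb1, Pcdhb6 and Pcdhb18. An array signal below this level does not separate a low transcript level from background, so these 10 genes cannot be called absent.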

How the data were processed

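The authors made the deposited log2 intensities with RMA (background correction, normalization and a summary of the probes) in Affymetrix Expression Console 1.1. Which arrays were normalized together and the version of RMA are not given in the sources used here. They compared the groups in GeneSpring, with thresholds of 2-fold and of 0.05 for p adjusted by Benjamini–Hochberg. Here 64 control probe sets were left out of 45101, and 36029 with a mean at or above the 20th percentile (log2 4.74) entered a comparison of the groups in limma 3.58.1 (R 4.3.3, moderated by eBayes, no block) with these thresholds, with p adjusted over all of them. By the array annotation 34945 probe sets have 1 gene, 932 have several and 9160 have none. The scripts were tested on simulated data.

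All 56 Entrez identifiers of the family matched the RefSeq gene table. No genome build comes with the values, so positions are given for RefSeq promoters only.

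Sample numbers pair the sides of a round, as the methods state. After centring on group means, samples with the same number correlated at 0.511, 0.541 and 0.612 over the 36029 probe sets that passed the filter, and others at −0.353 to −0.207. The centring by itself pushes the other correlations negative where those of the same number are positive. Array medians were 5.81, 6.70 and 6.33 in ipsilateral and 5.80, 6.65 and 6.26 in contralateral samples. The number of arrays limits the precision.

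Named with values were members called by either fit, those with a difference of 0.5 or more and one sign in every round, those with a known role in the eye or in axons, the largest difference of each class, and the 2 largest of each partner list; other members were named after their values were seen. Members and lists were chosen with earlier results of these data known. Alternatives were the replicate block, no filter, a filter at the 50th percentile, quantile normalization, median centring, array weights, a robust fit with an intensity trend, the mean of all probe sets, other thresholds, and leaving out arrays; leaving out whole rounds was chosen after seeing the data.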

Additional observations from a re-analysis of the deposited data

How the results depend on the processing

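No member was called with the replicate block, which gave 0 higher and 0 lower with the same median difference of −0.13, nor under most other settings. Array weights, whose estimate did not fully converge, called 1 member higher, Cdh20, at 1.01 with a limma adjusted p of 0.0240 (0.189 with the replicate block and 1.0 under most settings). Under those weights Pcdh7 had an adjusted p of 0.0467 at −0.84, short of 2-fold. An unadjusted p with 2-fold called 1 member lower, Pcdh7, beside 24 of the 15346 genes tested. The median difference of −0.13 was −0.076 with no filter (56 members), −0.18 with the filter at the 50th percentile (28 members) and −0.18 with median centring. It ran from −0.49 without contralateral replicate 1 to 0.21 without ipsilateral replicate 1, fits that leave a round with 1 side; without both samples of a round it was −0.093, −0.15 and −0.078. With median centring 1 member, Cdh20, was above 0 in every round rather than 3, and Cdh15 and Cdh23 no longer were. Counts over all 3 rounds have no value with an array left out. Of 367 values of the 22 tested members named by the rule, 40 had the opposite sign. Cdh13 was at −0.017 with quantile normalization, −0.040 with median centring, −0.39 with array weights and −0.034 as the mean of its probe sets. With array weights Cdh2 was at 0.073, Cdh6 at −0.052, Pcdh18 at −0.015 and Pcdhgc4 at 0.13. Leaving out 1 array or 1 round gave the ranges Cdh10 −1.57 to 0.0086, Cdh11 −0.063 to 0.19, Cdh13 −0.63 to 0.57, Cdh2 −0.28 to 0.081, Cdh23 −0.23 to 0.44, Cdh3 −0.53 to 0.23, Cdh4 −0.061 to 0.62, Cdh6 −0.16 to 0.91, Cdh8 −0.78 to 0.27, Pcdh10 −1.27 to 0.67, Pcdh17 −0.26 to 0.078, Pcdh18 −0.39 to 0.53, Pcdhb4 −1.58 to 0.031, Pcdhgc4 −0.64 to 0.79. For Cdh3, Cdh11, Cdh13, Cdh23, Pcdh17, Pcdh18 and Pcdhgc4 the lowest value came without contralateral replicate 1 and the highest without ipsilateral replicate 1. Such fits leave round 1 with 1 side, and its arrays had the lowest medians, 5.81 and 5.80. The cause was not tested. The 8 named members that kept their sign under all settings also moved, with ranges of 0.39 to 1.04 for Cdh20, −1.30 to −0.59 for Pcdh7, −0.37 to −0.00023 for Pcdh9, −1.05 to −0.51 for Pcdh11x, −0.90 to −0.17 for Pcdh15, −0.64 to −0.026 for Pcdh19, −1.02 to −0.48 for Pcdhb7 and −1.14 to −0.29 for Pcdhb17.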
